A study of Mus musculus with 7 samples.

Results

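Glutamate and GABA receptor subunit genes were followed through 7 mouse brain tumours. They were 32 genes of the 37620 in each count table, taken by name: 4 AMPA, 5 kainate and 7 NMDA receptor genes, 5 metabotropic glutamate (mGlu) receptor genes, 9 GABA-A receptor genes and 2 GABA-B receptor genes. All 32 were in the tables, and 31 passed the low-count filter, the exception being Grin3b. The tumours grew in nude mice after glioblastoma stem-like cells, derived from subventricular zone neural stem cells, had been implanted into the brain. There were 4 tumours of line GSC1, which carried the changes labelled lgT/Ras, and 3 of line GSC2, labelled shp53, Nf1-/-, CDK4. Each set of changes is represented by 1 line, nothing in the labels gives the age or sex of the mice, and each tumour was sequenced once as bulk RNA, so tumour cells and the brain tissue around them were read together. The series calls the tumours of a line independent.

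Ionotropic glutamate receptors are cation channels put together from several subunits and carry fast excitation. GABA-A receptors are chloride channels, also put together from several subunits, and carry fast inhibition, while mGlu and GABA-B receptors act through G proteins. Neurons hold most of these receptors, with subunits that change between forebrain, cerebellum and hindbrain, and astrocytes, oligodendrocyte progenitors and glioma cells express some of them as well.

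The upstream sequences of 4 members are shown: Gria2 and Grm2, which rose with the brain content of the tumours, Grin2c, which led its family in most tumours, and Grik3, which did not rise. Gria2 and Grm2 were also the only members with a match to the RE1 element, described below, or to a part of it. They do not stand for the other genes that rose. RefSeq start sites on GRCm38.p6 were listed for 24 of the 32 genes. Each sequence is the 250 bases before the start site on the gene's strand, and capitals mark letters that matched a searched motif on either strand. The motifs were the RE1 element, searched with up to 3 mismatches at its fixed letters, which is bound by REST, a repressor of neuronal genes outside neurons; its left part TTCAGCACC and right part GGACAGCGC without mismatch, which overlap it; and the GC box GGGCGG.
Gria2: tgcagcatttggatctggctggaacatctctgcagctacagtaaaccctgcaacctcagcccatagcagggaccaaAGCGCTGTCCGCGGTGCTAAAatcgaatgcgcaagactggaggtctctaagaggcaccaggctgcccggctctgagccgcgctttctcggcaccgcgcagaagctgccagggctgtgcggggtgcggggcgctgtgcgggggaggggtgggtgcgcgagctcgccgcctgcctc
Grm2: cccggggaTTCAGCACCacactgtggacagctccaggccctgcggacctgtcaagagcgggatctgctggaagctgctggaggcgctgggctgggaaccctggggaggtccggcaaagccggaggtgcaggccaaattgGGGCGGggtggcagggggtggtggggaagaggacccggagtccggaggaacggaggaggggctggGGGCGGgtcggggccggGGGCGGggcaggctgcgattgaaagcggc
Grin2c: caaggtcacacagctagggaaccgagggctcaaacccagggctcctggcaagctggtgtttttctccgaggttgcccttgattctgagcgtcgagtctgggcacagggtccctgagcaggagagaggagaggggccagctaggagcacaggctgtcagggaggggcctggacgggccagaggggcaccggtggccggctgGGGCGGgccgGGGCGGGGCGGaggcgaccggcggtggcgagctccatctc
Grik3: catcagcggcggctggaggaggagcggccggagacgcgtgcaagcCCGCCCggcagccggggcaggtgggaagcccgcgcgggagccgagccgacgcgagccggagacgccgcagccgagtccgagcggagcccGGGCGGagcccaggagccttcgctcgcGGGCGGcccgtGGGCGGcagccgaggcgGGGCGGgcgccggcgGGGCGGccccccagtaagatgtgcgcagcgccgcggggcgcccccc

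The windows lie at chr3:80802836-80803085 on the minus strand (Gria2), chr9:106656110-106656359 on the minus strand (Grm2), chr11:115267244-115267493 on the minus strand (Grin2c) and chr4:125490446-125490695 on the plus strand (Grik3). Gria2 held an RE1 match with 2 mismatches on the opposite strand, 174 to 154 bases before the start site, with the right part inside it unchanged, and it was the only member of the 24 with one. Such a match was found in 0.0761% of 32851 mouse windows of the same length. Grm2 held the left part of the element 242 to 234 bases before its start, as did 0.301% of windows, and no full match. The window of Grik3 was 82.0% G and C and held 6 GC boxes, and those of Grin2c and Grm2 held 3 each. The 24 genes have 31 windows, and 15 of these (48.4%), in 14 genes, held a GC box, as did 32.7% of all windows. These are matches of letters, and binding was not measured.

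Libraries held 18643155 to 32643408 counts on genes. Levels are given in CPM, counts scaled to a common library size after TMM normalisation, and a brain score summarised normal brain tissue: the mean of the mean log2 CPM of 14 neuron genes and of 12 mature oligodendrocyte genes, none of them a receptor gene. It was 6.27, 4.93, 8.82 and 8.05 in GSC1 tumours 1 to 4 and 6.38, 7.87 and 7.72 in GSC2 tumours 1 to 3. Nf1 (log2 fold change of GSC2 against GSC1 0.01), Trp53 (-0.11) and Cdk4 (0.18), named in the GSC2 label, did not pass between the lines. In that edgeR test 0 of 16068 genes passed, so this does not bear on the labelled changes. Mouse host cells carry these genes too. All 7 neural stem and tumour cell markers, Nes and Sox2 among them, were detected in every tumour. Detection alone does not show how much of each sample was tumour cells. Along the brain score 4 of the 7 fell and 1 rose (edgeR adjusted p under 0.05), where 23.3% of all genes fell and 23.7% rose. Summed over 6 hindbrain and spinal cord genes the level was 529 and 189 CPM in GSC1 tumours 3 and 4 and 1.40 to 7.43 CPM in the other 5 tumours, with Hoxc4 at 0 in all 5. Over the 6 cerebellar granule cell genes the sum was 15.6, 22.8, 187 and 854 CPM in GSC1 tumours 1 to 4. It was 19.9, 116 and 135 CPM in GSC2 tumours 1 to 3. Of these genes, Cbln3 was at 245 CPM in GSC1 tumour 4 and at 0 to 1.31 CPM elsewhere. Long transcripts were low in GSC1 tumours 3 and 4 and GSC2 tumour 3. There, the median log2 deviation from the mean of all tumours was lower for genes with transcripts of 8000 bases or more than for genes with 2000 bases or fewer (differences of -0.40, -0.36 and -0.70), while the other 4 tumours had differences of 0.02 to 0.64. Region, brain score and length trend thus move together in GSC1 tumours 3 and 4, and their parts in the results below were not tested.

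Most receptor genes rose with the brain score. With line and brain score in 1 model, 24 of the 31 genes rose with the score and 0 fell (edgeR quasi-likelihood test, Benjamini-Hochberg adjusted p under 0.05 over all genes), where 23.7% of all 16068 genes tested rose, 23.3% fell and 47% did either. limma-voom called 23 of the 31 (46.8% of all genes) and DESeq2 27 (52%). The median slope was 0.71, in log2 units of expression per log2 unit of score, against 0.00 for all genes tested. The largest slopes that passed were those of Gria4 (1.39, SE 0.28), Gabrg1 (1.23, SE 0.18), Grm2 (1.08, SE 0.29), Gabra3 (1.08, SE 0.10) and Grik1 (1.07, SE 0.16). The 7 that did not pass were Grik3, Grik5, Grin2a, Grin2b, Gabrg3, Gabrd and Gabbr2. In bulk tissue more cells of a type and more RNA per cell cannot be told apart. All 31 slopes were positive without GSC1 tumours 3 and 4, the tumours with hindbrain genes. On the 5 tumours left, 0 receptor genes passed, and 0 genes in all. Without the 3 libraries low in long transcripts 14 receptor genes passed, in a fit of line and score on only 4 tumours. The share of all genes called in that fit is not given here, so the 14 cannot be judged against it.

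**Figure D1:**
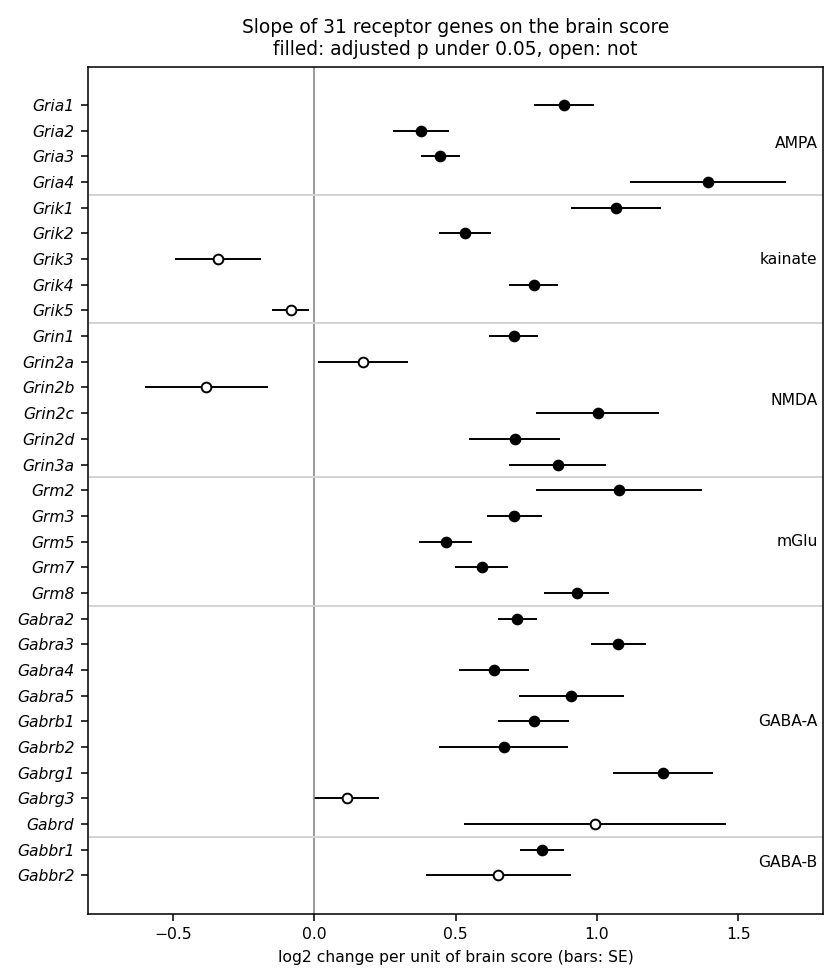
Slope of each of the 31 tested receptor genes on the brain score (x axis, log2 change per unit of score), with bars of 1 SE, from the fit with line and score over 7 tumours, in blocks by receptor family. Filled points passed an adjusted p of 0.05 over all genes: 24 lie right of zero and none left of it, while Grik3, Grik5 and Grin2b are open points left of zero.

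Of the 32 genes, 24 were lowest in GSC1 tumour 2, the tumour with the lowest score. The highest value fell in GSC1 tumour 3 for 10 genes, in GSC2 tumour 2 for 10, in GSC1 tumour 4 for 8, in GSC2 tumour 3 for 3 and in GSC1 tumour 1 for 1, Grik5. Divided by transcript length, the highest mean levels were those of Gabbr1 (57.3 CPM per kb), Gria1 (29.5), Grin1 (25.0), Grik5 (18.8) and Gabrb2 (13.8), and the lowest was that of Grin3b (0.0714). In GSC1 tumour 2 the order was different: Grik5 came first (17.9 CPM per kb), before Gabbr1 (16.2), Gria1 (6.89), Grin1 (6.79) and Gabrb2 (3.37). Gria1 and Grin1, neighbours in both orders, overlapped in their ranges over the tumours.

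**Figure D2:**
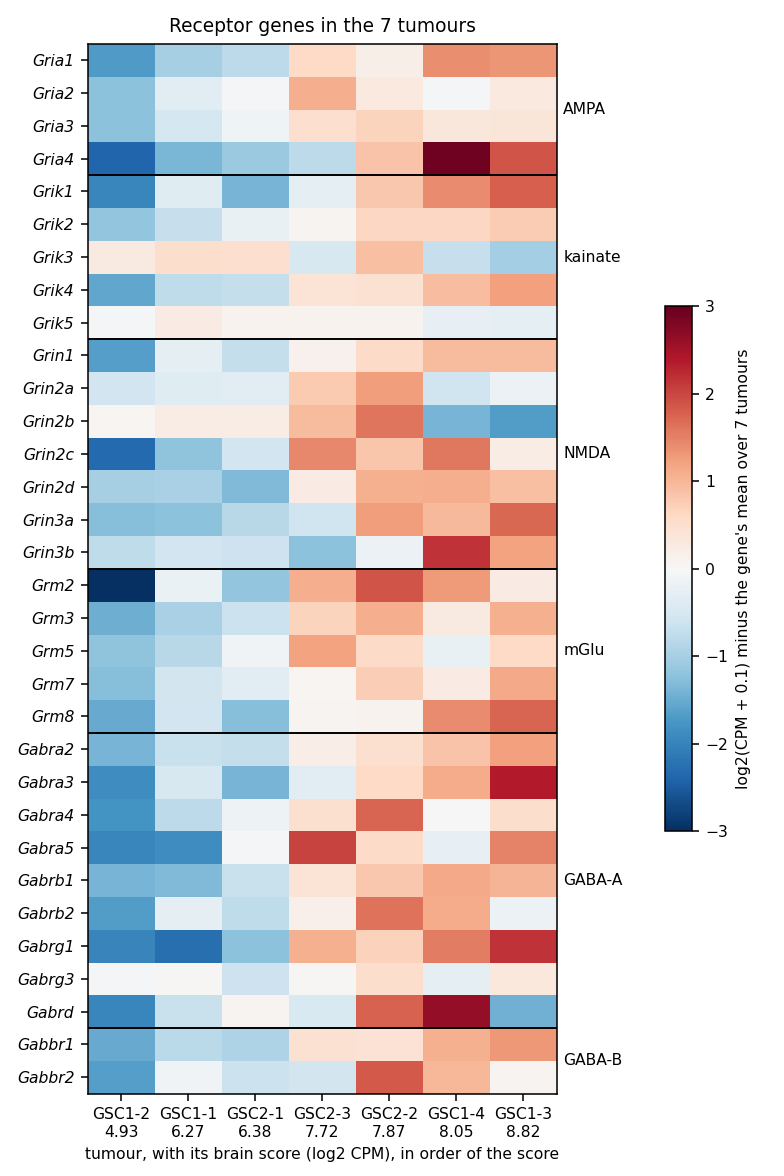
Level of the 32 receptor genes (rows, by family) in the 7 tumours (columns, in order of the brain score printed under each name), as log2(CPM + 0.1) minus the gene's mean over the tumours. Most rows turn from blue in GSC1 tumour 2 to red in the tumours with scores above 7.7. Among the rows that do not are Grik3, Grik5, Grin2a, Grin2b, Gabrg3 and Gabrd.

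The 4 AMPA receptor genes all rose with the score. Gria1, for the subunit GluA1, was at 62.7, 38.2, 313 and 327 CPM in GSC1 tumours 1 to 4 and at 72.3, 141 and 191 CPM in GSC2 tumours 1 to 3 (slope 0.88, SE 0.11, edgeR adjusted p = 0.000908). It was highest in GSC1 tumours 3 and 4, and the ranges of the lines overlapped. Gria2, whose edited subunit GluA2 keeps calcium out of AMPA receptors, was at 50.2, 26.5, 76.8 and 61.7 CPM in GSC1 and at 60.5, 76.5 and 133 CPM in GSC2 (slope 0.38, SE 0.10, edgeR adjusted p = 0.0147). Its highest value was in GSC2 tumour 3, and the call was lost without GSC1 tumour 2 or without GSC1 tumour 3. Gria3, for GluA3, ranged from 10.9 to 41.3 CPM (slope 0.45, SE 0.07). Gria4, for GluA4, a subunit of fast receptors that is abundant in cerebellum and brainstem, was at 9.53, 4.71, 92.1 and 189 CPM in GSC1 and at 11.3, 44.8 and 14.3 CPM in GSC2 (slope 1.39, SE 0.28, edgeR adjusted p = 0.00512). It spanned 40.2-fold between tumours, with GSC1 tumours 4 and 3 on top, and its call was lost without GSC1 tumour 2.

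The make-up of the AMPA family differed between tumours with similar scores. Per length, Gria1 held the largest share of AMPA receptor transcripts in all 7 tumours, from 51.2 to 64.8%. Gria4 held 19.4% in GSC1 tumour 3 and 32.8% in GSC1 tumour 4 (95% interval 31.96 to 33.6%), but 16.8% in GSC2 tumour 2 and 4.63% in GSC2 tumour 3 (4.12 to 5.18%). Gria2 held 8.49% and 5.62% in GSC1 tumours 3 and 4 and 15.1 to 22.9% in the other 5 tumours. The intervals are exact binomial intervals of the count share, carried to the per-length scale with the mix of the other subunits held fixed, and they cover counting error only. The Gria2 transcript is 10371 bases long and that of Gria4 5441. Gria2 held 22.5% in GSC2 tumour 3, which has the most negative length trend. What part the length trend has in these shares was not tested.

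Kainate receptor genes went different ways. Grik5, for the high-affinity subunit GluK5, was the most even of the 32 genes, at 90.2, 72.6, 61.8 and 64.3 CPM in GSC1 tumours 1 to 4 and at 82.0, 81.5 and 81.5 CPM in GSC2 (slope -0.08, SE 0.07, edgeR adjusted p = 0.329). Highest and lowest tumour differed 1.46-fold while neuron markers, summed over the list, went from 834 to 8688 CPM. Grik3, for GluK3, was at 30.4, 25.3, 10.3 and 12.9 CPM in GSC1 and at 29.7, 39.6 and 15.0 CPM in GSC2 (slope -0.34, SE 0.15, edgeR adjusted p = 0.0967). It was lowest in the 3 libraries that are low in long transcripts, and its transcript is 8973 bases long. Its slope was -0.25 with an offset for transcript length, 0.27 without those 3 libraries and 0.11 without both tumours with hindbrain genes, none passing, and it passed as a fall without GSC2 tumour 2 (slope -0.43) and in DESeq2 (-0.34). What part transcript length or region has in it was not tested. Grik1, for GluK1, was at 1.97, 0.588, 9.22 and 7.05 CPM in GSC1 and at 0.916, 4.56 and 2.11 CPM in GSC2, and rose with the score (slope 1.07, SE 0.16). The low-affinity subunit gene Grik2 (4.74 to 18.4 CPM, slope 0.53, SE 0.09) and Grik4, for the high-affinity subunit GluK4 (3.09 to 21.9 CPM, slope 0.78, SE 0.09), rose as well. Grik5 held 62.0 to 81.7% of the family per length. The summed kainate receptor level stayed between 106 and 155 CPM, while the summed AMPA receptor level went from 80.4 to 610.5 CPM.

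**Figure D3:**
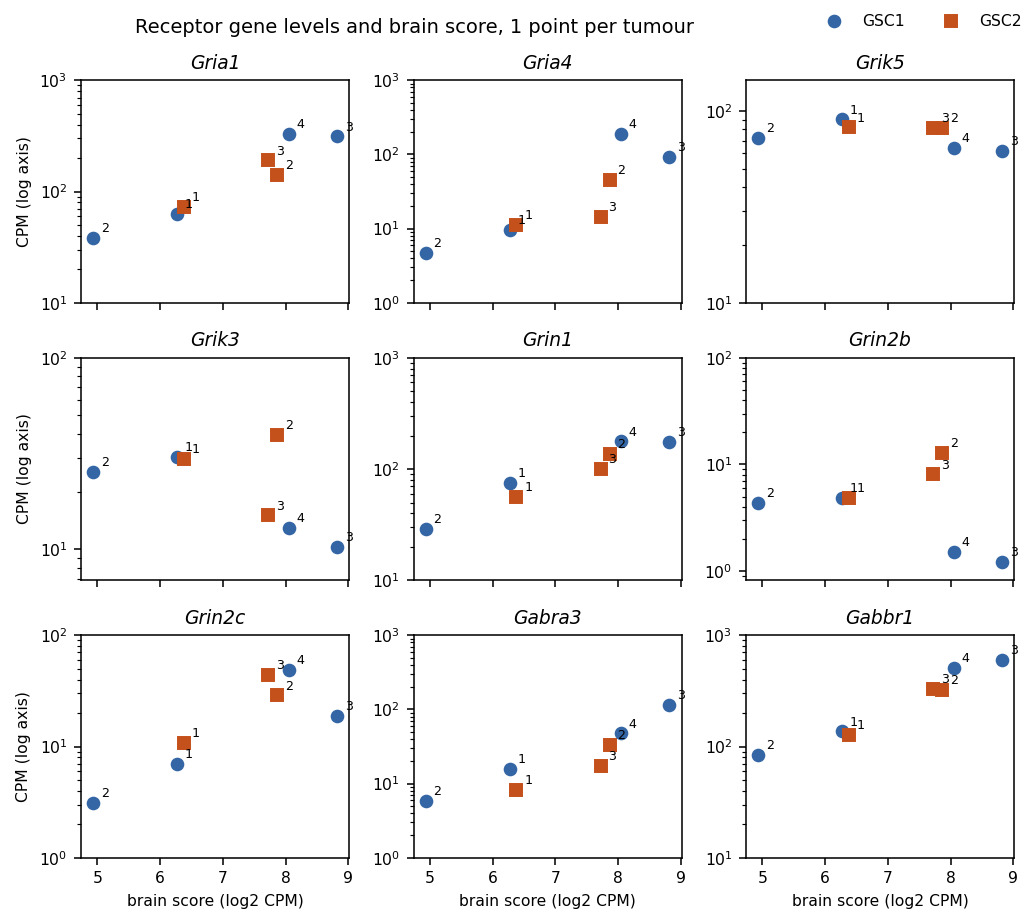
CPM (log axis) of 9 receptor genes against the brain score, 1 point per tumour, GSC1 as circles and GSC2 as squares with the replicate number beside each. Gria1, Grin1, Gabra3 and Gabbr1 climb with the score, Grik5 stays between 61.8 and 90.2 CPM, and Grik3 and Grin2b are lowest in GSC1 tumours 3 and 4.

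Of the NMDA receptor genes 4 of the 6 tested rose with the score. Grin1, for the GluN1 subunit that every NMDA receptor contains, was at 74.7, 29.0, 177 and 177 CPM in GSC1 and at 55.7, 136 and 100.05 CPM in GSC2 (slope 0.70, SE 0.09, edgeR adjusted p = 0.000929). An antisense gene covers 13.5% of its exon bases, as others cover 9.66% in Grin2d, 9.60% in Grm2 and 4.98% in Gabra5, and reads of such pairs could not be told apart if strand was not used in counting. Grin2c, for GluN2C, which is typical of cerebellar granule cells and also found in astrocytes, was at 6.95, 3.12, 18.9 and 48.8 CPM in GSC1 and at 10.8, 28.8 and 44.2 CPM in GSC2 (slope 1.00, SE 0.22, edgeR adjusted p = 0.00723). It was about as high in GSC2 tumour 3 as in GSC1 tumour 4, and its call was lost without GSC1 tumour 2. The cerebellar granule cell genes summed to 135 CPM in GSC2 tumour 3 and to 854 CPM in GSC1 tumour 4. What part granule cells have in the Grin2c values was not tested. Summed over the 8 astrocyte markers the levels were 2260, 1793, 12418 and 10467 CPM in the GSC1 tumours and 2188, 5211 and 5477 CPM in the GSC2 tumours. That sum was highest in GSC1 tumour 3, where Grin2c was lower than in 3 other tumours, and its part in the Grin2c values was not tested. Grin2d, for GluN2D (3.21 to 17.3 CPM, slope 0.71, SE 0.16), and Grin3a, for a subunit that lowers calcium entry (4.34 to 35.6 CPM, slope 0.86, SE 0.17), rose too.

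Grin2a and Grin2b, for the NMDA receptor subunits GluN2A and GluN2B, did not pass. Grin2b was at 4.87, 4.34, 1.23 and 1.52 CPM in GSC1 tumours 1 to 4 and at 4.88, 12.8 and 8.07 CPM in GSC2 tumours 1 to 3 (slope -0.38, SE 0.22, edgeR adjusted p = 0.180). The tumours with hindbrain genes were the lowest, with 31 and 32 reads on the gene. Its transcript is the longest of the 32, at 24060 bases. GSC2 tumour 3, with the most negative length trend, was second highest, and the part of transcript length in these values was not tested. With an offset for transcript length in each tumour the slope was -0.15, and without GSC1 tumours 3 and 4 it was 0.55, neither passing. Without GSC2 tumour 1 it passed as a fall (slope -0.55, edgeR adjusted p = 0.0420). Grin2a was at 2.69, 2.32, 3.10 and 2.29 CPM in GSC1 and at 2.75, 8.56 and 6.12 CPM in GSC2 (slope 0.17, SE 0.16). Grin3b, for GluN3B, had 0 to 20 reads and at most 0.952 CPM, in GSC1 tumour 4; 0 reads in GSC2 tumour 3 allow up to 0.150 CPM. The gene shares 32.1% of its exon bases with Tmem259 on the other strand, and it is not known whether counting used strand, so its level is uncertain.

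Within the GluN2 family Grin2c led per length in 6 tumours, with 55.5 to 78.0%, and Grin2d in GSC1 tumour 2, with 43.0% (37.4 to 48.6%) against 37.2% Grin2c (31.5 to 43.1%). Those intervals overlap. Grin2b held 0.735% (0.498 to 1.05%) and 0.474% (0.323 to 0.670%) in GSC1 tumours 3 and 4 and 2.90 to 10.5% in the others. Without division by length Grin2b led in GSC1 tumour 2, with 118 reads against 109 for Grin2d and 85 for Grin2c.

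**Figure D4:**
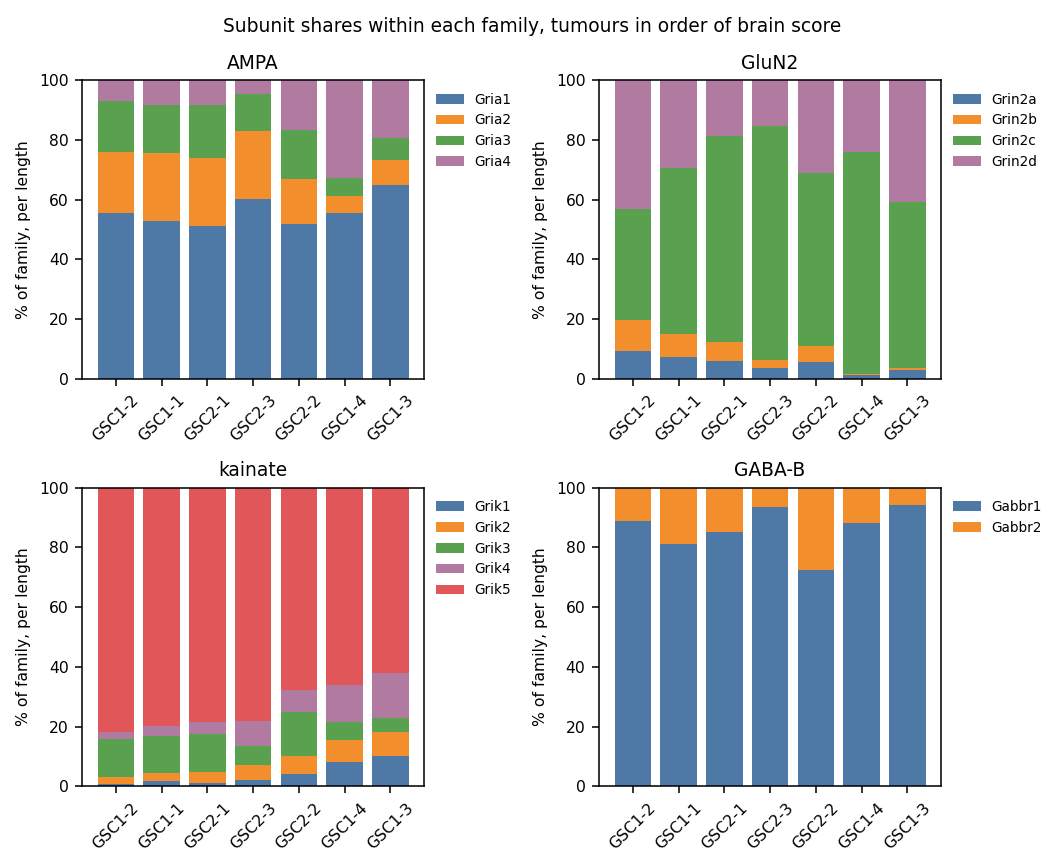
Share of each subunit in its family (percent, counts divided by transcript length) in each tumour, ordered by brain score, for AMPA, GluN2, kainate and GABA-B receptor genes. Gria1, Grik5 and Gabbr1 lead their families in every tumour, and Grin2b narrows to under 1% in GSC1 tumours 3 and 4.

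All 5 mGlu receptor genes rose with the score. Grm5, which signals through Gq, had the highest mean level of the 5 per length, 5.53 CPM per kb beside 5.47 for Grm3, and the ranges of the pair overlapped. Its CPM values were 21.8, 16.8, 58.3 and 32.9 in GSC1 and 36.0, 57.2 and 88.6 in GSC2 (slope 0.46, SE 0.09, edgeR adjusted p = 0.00520). Its highest value was in GSC2 tumour 3, and the call was lost without GSC1 tumour 3. Grm2 and Grm3 encode the Gi-coupled group II receptors, and Grm3 is also found in astrocytes. Grm2 was at 6.201, 0.735, 8.51 and 17.3 CPM in GSC1 and at 3.05, 26.4 and 15.2 CPM in GSC2 (slope 1.08, SE 0.29), a 35.9-fold span with GSC1 tumour 2 alone under 1 CPM. Its call was lost without that tumour, which had 20 reads on the gene. Grm3 was at 6.98, 4.89, 28.8 and 16.4 CPM in GSC1 and at 8.70, 29.3 and 21.7 CPM in GSC2 (slope 0.71, SE 0.10), and held 59.5 to 91.1% of the pair per length. Of the group III receptors, which sit on nerve endings, Grm7 ranged from 4.56 to 24.7 CPM (slope 0.59, SE 0.09) and Grm8 from 1.25 to 12.8 CPM (slope 0.93, SE 0.11). Grm8 was highest in GSC1 tumours 3 and 4.

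GABA-A receptor genes rose in 7 of 9 cases. Gabra2, Gabra4, Gabrb1 and Gabrg1 lie in 1 cluster on chromosome 5 (GRCm38 annotation, 70751047 to 72149037), where exons of Gabra4 and Gabrb1 overlap head to head by 46 bases, and all 4 rose with the score. Gabrg1, for a gamma subunit, was at 2.49, 3.01, 55.0 and 35.7 CPM in GSC1 and at 5.19, 19.9 and 25.6 CPM in GSC2 (slope 1.23, SE 0.18, edgeR adjusted p = 0.00162). The 3 tumours with scores under 6.5 were all below the other 4. Gabra2 (8.01 to 50.2 CPM, slope 0.72, SE 0.07) and Gabrb1 (4.74 to 27.8 CPM, slope 0.78, SE 0.12) followed the same order of low and high tumours. Gabra4, whose subunit pairs with delta in receptors outside synapses, was at 12.9, 6.36, 32.5 and 22.4 CPM in GSC1 and at 20.3, 74.9 and 31.3 CPM in GSC2 (slope 0.64, SE 0.12), with its highest value in GSC2 tumour 2, where none of the other 3 cluster genes was highest. Its call was lost without GSC1 tumour 2.

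Gabra3, an alpha subunit gene of the X chromosome, was at 15.7, 5.92, 115 and 47.5 CPM in GSC1 and at 8.29, 33.1 and 17.2 CPM in GSC2 (slope 1.08, SE 0.10, edgeR adjusted p = 0.000366). It was highest in GSC1 tumour 3, and the ranges of the lines overlapped. Gabra5, whose subunit is typical of hippocampal receptors outside synapses, was at 2.32, 2.17, 24.6 and 7.33 CPM in GSC1 and at 8.29, 13.0 and 35.8 CPM in GSC2 (slope 0.91, SE 0.18), with its highest value in GSC2 tumour 3. The gene lies beside Gabrg3 on chromosome 7, and its call was lost without GSC1 tumour 3. Gabrb2, for a beta subunit, was at 35.3, 13.5, 37.8 and 93.1 CPM in GSC1 and at 25.4, 133 and 47.5 CPM in GSC2 (slope 0.67, SE 0.23, edgeR adjusted p = 0.0410), and passed in only 2 of the 7 fits that left out a tumour, those without GSC1 tumour 3 and without GSC2 tumour 2. Gabrd, for the delta subunit of cerebellar granule, thalamic and dentate receptors outside synapses, was at 5.88, 2.35, 3.38 and 59.1 CPM in GSC1 and at 9.97, 32.4 and 6.82 CPM in GSC2 (slope 0.99, SE 0.46). It was high in GSC1 tumour 4 and GSC2 tumour 2 and low in GSC1 tumour 3, the tumour with the highest score. Gabra6, the granule cell alpha gene and no member of the set, was at 115 CPM in GSC1 tumour 4, at 1.15 CPM in GSC1 tumour 3 and at 0 in the other 5, where 0 reads allow 0.0869 to 0.153 CPM. Gabrg3, for another gamma subunit, was even, at 7.99 to 18.03 CPM (slope 0.11, SE 0.11).

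The GABA-B receptor works as a pair, in which the Gabbr1 product binds GABA and the Gabbr2 product couples to the G protein. Gabbr1 was at 137, 84.8, 597 and 507 CPM in GSC1 and at 126, 324 and 328 CPM in GSC2 (slope 0.81, SE 0.08, edgeR adjusted p = 0.000435). Gabbr2 was at 34.9, 11.8, 39.3 and 74.3 CPM in GSC1 and at 24.0, 134 and 25.6 CPM in GSC2 (slope 0.65, SE 0.26, edgeR adjusted p = 0.0679). GSC1 tumour 3 was highest for Gabbr1 and GSC2 tumour 2 for Gabbr2. Gabbr2 held 5.66% and 6.63% of the pair per length in GSC1 tumour 3 and GSC2 tumour 3 and 27.5% in GSC2 tumour 2. Gabbr2 passed without GSC1 tumour 3 and without GSC2 tumour 3.

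Between the lines no receptor gene passed. Of the 31, 0 passed edgeR's quasi-likelihood test of GSC2 against GSC1, limma-voom or DESeq2, which called 0%, 0.00622% and 1.2% of all genes. In all, 2 had an unadjusted p under 0.05 in edgeR, against 4.21% of all genes. Those were Grin2b, at 2.99 ± 1.88 CPM (SD, n = 4) in GSC1 and 8.60 ± 4.00 CPM (SD, n = 3) in GSC2 (log2 fold change 1.52, SE 0.61), and Grin2a, at 2.60 ± 0.382 against 5.81 ± 2.92 CPM (1.16, SE 0.44). Grin2b was the 1 gene whose values did not overlap between the lines, where 5.58% of all genes tested did not (3.05% with GSC2 higher, 2.53% with GSC1 higher). GSC1 tumour 1 at 4.87 CPM and GSC2 tumour 1 at 4.88 CPM stood next to each other. Folds were positive in 17 and negative in 14, with a median of 0.06 against -0.03 for all genes. The split moved with the method: 25 and 6 in limma-voom (median 0.45) and 14 and 17 with an offset for transcript length (-0.05). Without both tumours with hindbrain genes it was 30 and 1 (1.25), with 0 passing. Without the 3 libraries low in long transcripts 30 of the 31 folds were positive, with a median of 1.17 and 0 passing; the GSC2 tumours of that fit had scores of 6.38 and 7.87 and the GSC1 tumours 6.27 and 4.93.

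At equal brain score, which was itself read from the same tumours, 0 of 31 passed in edgeR and in limma-voom, where edgeR called 0.741% of all genes (0.51% with GSC2 higher, 0.23% with GSC1 higher) and limma-voom 0.784%. DESeq2 called 5, and 6.71% of all genes. An unadjusted p under 0.05 in edgeR was found for 9, against 16.4% of all genes. Folds were positive in 18 and negative in 13 (median 0.10), and this split moved with the score. It was 27 and 4 with the neuron genes alone as score (median 0.51) and 14 and 17 with the oligodendrocyte genes alone (-0.09). Equal brain score was not equal neuron content: 13 of the 14 neuron genes were lower in GSC2 in this fit (median -0.41). Of the 12 mature oligodendrocyte genes 11 were higher in GSC2 (median 0.52). The 5 called by DESeq2 were higher in GSC2 for Grin2b (edgeR log2 fold change 1.91, SE 0.53), Gabra4 (1.11, SE 0.29) and Grm5 (0.85, SE 0.23) and lower in GSC2 for Gabra3 (-0.97, SE 0.23) and Grm8 (-0.93, SE 0.27). Gabra3 and Grm8 were both highest in GSC1 tumours 3 and 4, and Grin2b was lowest there. Without those 2 tumours the fold of Grin2b was -0.15.

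**Figure D5:**
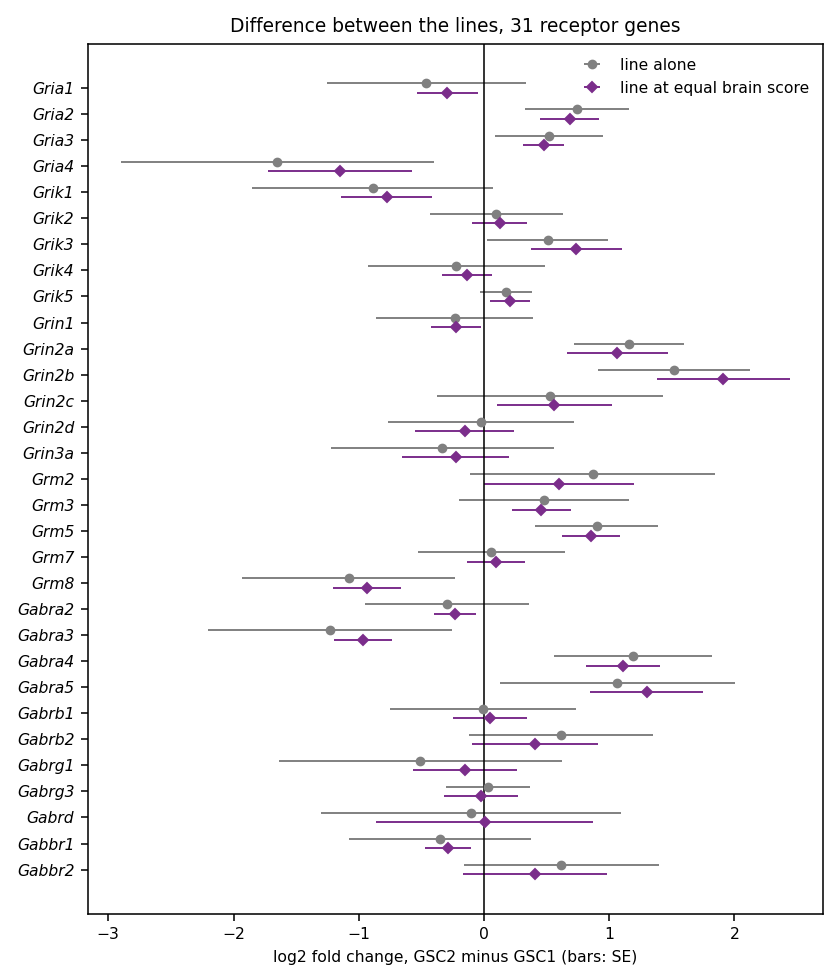
Log2 fold change of GSC2 minus GSC1 for the 31 tested receptor genes (points, bars of 1 SE), from the fit on line alone (grey circles) and from the fit at equal brain score (diamonds). None passed an adjusted p of 0.05 in edgeR, and the bars narrow for most genes once the score is in the fit.

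Other genes of both transmitter systems were read from lists written for this purpose with earlier results of these data known. The counts that follow stand beside the 23.7% of all genes tested that rose with the score. Of 9 other receptor subunit genes tested of 14, 8 rose with the score, among them the mGlu receptor gene Grm4 (slope 1.496), which was at 129 CPM in GSC1 tumour 4 and at 2.28 to 33.3 CPM elsewhere. Of 14 auxiliary subunit genes of AMPA and kainate receptors 7 rose; Cacng7 (slope 0.37), Cnih2 (0.53) and Olfm1 (0.58) were among them, and Neto2, a kainate receptor partner, was even at 83.9 to 109 CPM (edgeR adjusted p = 0.989). Of 18 scaffold and kinase genes of the glutamate synapse 7 rose, among them Dlg4, the gene for PSD-95 (0.36), and Camk2b (0.69). Camk2a, the forebrain kinase gene, was at 154 and 69.9 CPM in GSC1 tumours 3 and 4 and at 832 CPM in GSC2 tumour 3 (slope 0.01), and Dlg1 was even at 81.6 to 127 CPM. Of 10 genes for glutamate supply and clearance 6 rose, with the astrocyte transporter genes Slc1a2 (0.88) and Slc1a3 (0.71) and the glutamine synthetase gene Glul (0.69) among them, while Slc38a1 (0.18) did not pass. Of 12 genes for GABA synthesis, transport and scaffolding 9 rose, among them the transporter gene Slc6a11 (1.68), the GABA transaminase gene Abat (1.10) and the chloride exporter gene Slc12a5 (0.96), while Gabarap (0.21) did not pass. No gene of the 5 lists fell with the score or passed between the lines in either edgeR fit.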

How the data were processed

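Per the labels' protocols, libraries of the 7 tumours' RNA were built with NEBNext Ultra reagents. The deposited values were raw read counts per gene, and TopHat2 2.0.11, HTSeq and the build mm9 are named, with dm3, per the submitters' processing notes; strand use in counting is not given in the sources used here. Summary lines (6.19 to 14.2% of reads without a feature, 12.8 to 21.0% not unique, 0.357 to 0.460% ambiguous) stayed out of library sizes and tests. Of the 37620 identifiers, 32897 had a symbol and a GENCODE transcript length.

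Counts were filtered with filterByExpr, scaled with TMM and fitted with edgeR 4.0.16 (quasi-likelihood test, robust, R 4.3.3), once on line and once on line and brain score, over all 16068 genes, with Benjamini-Hochberg adjustment. The score is the mean of both lists' mean log2 CPM with a prior count of 2. A standard error is the size of the log2 change divided by the square root of F. limma 3.58.1 (voom), DESeq2 1.42.0, other scaling and filters, a length offset, other scores and leaving out each tumour were alternatives. Fits were tested on simulated counts. Shares used counts divided by the longest transcript's length, with exact (Clopper-Pearson) intervals from scipy 1.17.1. All 32 genes are named by rule, as are the 4 genes of highest mean CPM in each list of other transmitter genes. Some of the latter are not reported here. The genes, lists and markers were chosen with earlier results of these data known. p-values measure the spread between tumours of 1 line each. Same-numbered tumours of the lines were not treated as pairs.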

Additional observations from a re-analysis of the deposited data

Results flagged for a closer look

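Gabrd, the gene of the GABA-A delta subunit, was at 59.1 CPM in GSC1 tumour 4, far above the other 3 GSC1 tumours, of which the next highest had 5.88 CPM. The gap to that tumour took up 0.938 of the range of the 4, above Dixon's 95% critical value for 4 samples. Of the 32 genes checked it was the only one with such a tumour. Chance marks about 1 in 20 groups, so 1 gene of 32 is no more than chance would mark. In the same tumour the granule cell genes Cbln3 and Gabra6 were at 245 and 115 CPM, and their part in the Gabrd value was not tested.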

How the results depend on the processing

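The count of receptor genes called along the brain score in either direction was 24, and stayed between 18 and 27 under the alternatives planned. It was 27 in DESeq2 (26 up and Grik3 down), 23 in limma-voom, and 18 to 25 when 1 tumour was left out, the lowest without GSC1 tumour 2. Under alternatives chosen after seeing the data it was 14 without the 3 libraries low in long transcripts, 12 of them shared with the 24, and 0 without both tumours with hindbrain genes. Those fits hold 4 and 5 tumours, and the share of all genes called in the fit of 4 is not given here. Between the lines the count was 0 in every fit run. At equal score it was 0, except 5 in DESeq2, 1 with the oligodendrocyte genes alone as score and 1 with a replicate block, Gabra3 in both of the latter. The block gave 19 along the score, 17 of them shared, and 0 between the lines, where 27 folds were positive and 4 negative (median 0.52). Deviations of same-numbered tumours correlated at 0.583, -0.306 and 0.409, and those of differently numbered tumours at -0.635 to 0.699. Such deviations also hold differences in brain score, so these values cannot show whether the numbers pair the tumours. Over single genes and settings 60 of 617 results along the score lost their call and 13 gained one, Gabrb2 being called in 9 of 20 alternatives. No called gene changed sign. The leading subunit was the same in 38 of 42 cases without division by length. Depth limits Grin3b, with at most 20 reads, and Grin2b in GSC1 tumours 3 and 4. It also limits Grik1 in GSC1 tumour 2 (16 reads) and GSC2 tumour 1 (18). The same holds for Grm2 in GSC1 tumour 2 (20) and Grm8 in GSC2 tumour 1 (29).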
